A study of Homo sapiens with 8 samples.

Results

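The 8 genes described here encode transcription factors (TFs) that define hepatocyte identity, namely HNF4A, HNF4G, FOXA1, FOXA2, FOXA3, CEBPA, ONECUT1 and PROX1. They were taken from the table by symbol and are 8 of the 25603 genes of the expression table. All 8 passed the filter on low values and are among the 20153 genes tested. They were measured by RNA-seq in HepG2, an established human hepatocarcinoma cell line, in 4 libraries per group. EZHi cells received UNC1999 and valemetostat tosylate, inhibitors of EZH1 and EZH2, each at 1 µM for 4 days, and vehicle cells received DMSO, at 0.2% per the labels. Both groups are the same transformed line, so the values describe these cells and not primary hepatocytes, and mRNA levels do not measure the activity of the inhibited enzymes.

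Hepatocyte identity is maintained by a small network of TFs that bind one another's genes as well as those of secreted plasma proteins and metabolic enzymes. HNF4A and its paralog HNF4G are nuclear receptors, the FOXA proteins are forkhead factors able to bind compacted chromatin, CEBPA is a basic leucine zipper factor, ONECUT1 (also called HNF6) is a cut-homeodomain factor needed for liver and bile duct development, and PROX1 is a homeodomain factor of hepatoblasts and hepatocytes. EZH1 and EZH2 supply the catalytic activity of polycomb repressive complex 2 (PRC2), which methylates lysine 27 of histone H3 and acts mainly at CpG-rich promoters of silent or weakly active genes.

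Promoter sequences are shown first, because the gene-level values below sum over all starts of a gene. Of the 8 members, 5 had an entry among the RefSeq promoters (GRCh38.p14), and HNF4G, FOXA2 and PROX1 had none. HNF4A has an upstream start, used in pancreas and fetal or transformed cells, and a downstream start that is the main one in adult liver, and reads from both fall into a single value. The 250 bases before each start are given for HNF4A on the plus strand of chromosome 20, with capitals for matches to the ONECUT core (ATTGAT) and the HNF1 half-site (GTTAAT), searched on both strands, where no match overlapped another.

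HNF4A upstream start, chr20:44355449-44355698: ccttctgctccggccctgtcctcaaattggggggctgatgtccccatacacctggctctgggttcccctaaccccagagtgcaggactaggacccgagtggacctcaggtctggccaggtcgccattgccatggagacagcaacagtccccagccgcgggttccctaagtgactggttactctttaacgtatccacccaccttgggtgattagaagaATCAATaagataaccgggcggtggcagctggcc
HNF4A downstream start, chr20:44400989-44401238: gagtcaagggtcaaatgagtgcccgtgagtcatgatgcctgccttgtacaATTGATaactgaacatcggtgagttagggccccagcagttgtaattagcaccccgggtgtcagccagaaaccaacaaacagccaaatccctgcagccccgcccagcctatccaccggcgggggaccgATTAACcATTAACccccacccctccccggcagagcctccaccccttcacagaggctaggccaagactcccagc

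The upstream window held 1 ONECUT core, and the downstream window held 1 ONECUT core and 2 HNF1 half-sites. Over the 35116 RefSeq promoter windows of the same length, the ONECUT core was found in 5.58% and the HNF1 half-site in 6.23%. The FOXA core (TGTTTNC, in 15.5% of windows), the C/EBP motif (TTGCNNAA, 9.05%) and the HNF4 motif (CAAAGTCCA, 0.325%) had no match in either HNF4A window. Such matches describe letters and not binding.

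FOXA1 and ONECUT1 are shown because their mRNA was called lower and higher, respectively, in EZHi cells when libraries were compared by replicate number. For these genes, capitals mark CpG dinucleotides on the minus strand of chromosomes 14 and 15, and for FOXA1 the 151 bases outside annotated exons are shown. The RefSeq starts used for FOXA1, ONECUT1 and FOXA3 lie within the gene spans given below. Their windows are therefore sequence inside the annotated genes and not before the outermost start.

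FOXA1, chr14:37595349-37595499: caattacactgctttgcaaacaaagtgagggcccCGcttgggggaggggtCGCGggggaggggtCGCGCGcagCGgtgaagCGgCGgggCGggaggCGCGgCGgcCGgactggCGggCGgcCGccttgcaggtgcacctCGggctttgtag
ONECUT1, chr15:52790337-52790586: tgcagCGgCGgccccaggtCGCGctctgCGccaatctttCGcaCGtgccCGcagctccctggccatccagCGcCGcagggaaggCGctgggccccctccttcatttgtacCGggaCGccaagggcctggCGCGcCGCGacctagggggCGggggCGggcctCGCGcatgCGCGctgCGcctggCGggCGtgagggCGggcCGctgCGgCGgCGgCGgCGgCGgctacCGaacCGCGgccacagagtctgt

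The full ONECUT1 window held 37 CpG, a count reached by 4.00% of all windows, and that of FOXA1 held 26 (19.6% of windows). CEBPA had the most, with 41 (1.73%), FOXA3 had 28 (15.9%), and each HNF4A window had 8 (56.3%), below the median of 11 over all windows. Of the 5 motifs, the FOXA1 window held 1 FOXA core, on the opposite strand, and those of CEBPA, FOXA3 and ONECUT1 held none. FOXA1 and ONECUT1 were thus both above the median in CpG count, as were CEBPA and FOXA3, which were not called with the replicate block.

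Levels are given as estimated FPKM (fragments per kilobase of transcript, scaled to a common library size), which correct for transcript length and so allow genes to be compared. They were obtained from the deposited length-corrected log2 values, on which all differences were tested, and the read depth behind them is unknown. In vehicle cells HNF4A was the most abundant member, with a mean of 266 ± 23.6 (SD, n = 4) estimated FPKM. It was followed by FOXA1 at 103 ± 2.72 and PROX1 at 36.7 ± 5.27, and the libraries of HNF4A, FOXA1, PROX1 and the next member did not overlap in level. FOXA3 (25.7 ± 1.74), FOXA2 (25.1 ± 3.25), CEBPA (22.4 ± 4.54), ONECUT1 (17.6 ± 6.61) and HNF4G (9.21 ± 1.72) followed, and each of these overlapped its neighbour in the order. In EZHi cells the order was HNF4A, FOXA1, PROX1, FOXA2, CEBPA, FOXA3, ONECUT1 and HNF4G. There the order from FOXA2 to ONECUT1 again consisted of overlapping neighbours, so the exchanged places of FOXA2, CEBPA and FOXA3 are within the spread of the libraries. Within a library, HNF4G lay below ONECUT1 in level in 4 of 4 libraries of each group, although their ranges overlapped in vehicle.

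The library labels were checked against marker genes of liver cell types. The summed level of 8 hepatocyte markers ran from 23845 to 46726 estimated FPKM in vehicle and from 26281 to 42834 in EZHi, with AFP and ALB the highest. AFP, with means of 16089 in vehicle and 16309 in EZHi, is used in the study as a marker of hepatoblasts. The sum is therefore not particular to mature hepatocytes. Of 8 cholangiocyte markers 6 were listed, with sums of 720 to 1126 and 907 to 1231, and KRT19, SPP1, EPCAM and SOX9 made up nearly all of it. Stellate cell markers (5 of 8 listed) summed to 33.4 to 42.7 and 42.5 to 47.5, and COL1A2, DCN and LUM were not listed. Endothelial markers (5 of 8 listed; KDR, CLEC4G and EMCN not listed) summed to 2.41 to 2.90 in vehicle and 3.60 to 7.35 in EZHi, with CDH5 and VWF called higher. Of 8 leukocyte markers 4 were listed, and LYZ alone gave nearly all of their sums of 1218 to 1694 and 1094 to 1564, while PTPRC, CD68, CD163 and MARCO were not listed. The part of these differences in the results below was not tested. In bulk libraries of a single cell line, a change in the share of cells expressing a gene and a change in mRNA per cell cannot be told apart.

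Differences were tested with limma over the 20153 genes, and a gene is described as called when its Benjamini-Hochberg adjusted p was under 0.05. Of the 8 members 1 was called, FOXA1, which was lower in EZHi cells. Over all genes tested 13.1% were called, 8.85% higher and 4.27% lower, so 1 of 8 (12.5%) is near the background. When libraries of equal replicate number were compared with each other, with the number as a term of the model (replicate block), 3 of 8 members were called (37.5%), against 30.0% of all genes (14.9% higher and 15.1% lower). These were FOXA1, lower, and FOXA2 and ONECUT1, higher. With quantile normalization, 0 of 8 members were called in limma (10.8% of all genes, 6.93% higher and 3.89% lower), and with libraries centred on the genes of at least 10 estimated FPKM also 0 of 8 (14.2%, 12.7% higher and 1.58% lower). With the block and quantile normalization it was 5 of 8, HNF4A, FOXA2, ONECUT1 and PROX1 higher and FOXA1 lower (27.8%, 13.7% higher and 14.0% lower), and with the block and centring 4 of 8, the same without HNF4A (29.4%, 22.6% higher and 6.79% lower). Without adjustment, limma gave a p under 0.05 for 1 higher member, FOXA2, and 1 lower, FOXA1, under both scalings without the block. The median log2 fold change of the members was 0.06, against -0.01 over all genes tested and -0.09 over the 7809 genes with a mean of at least 10 estimated FPKM.

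**Figure D1:**
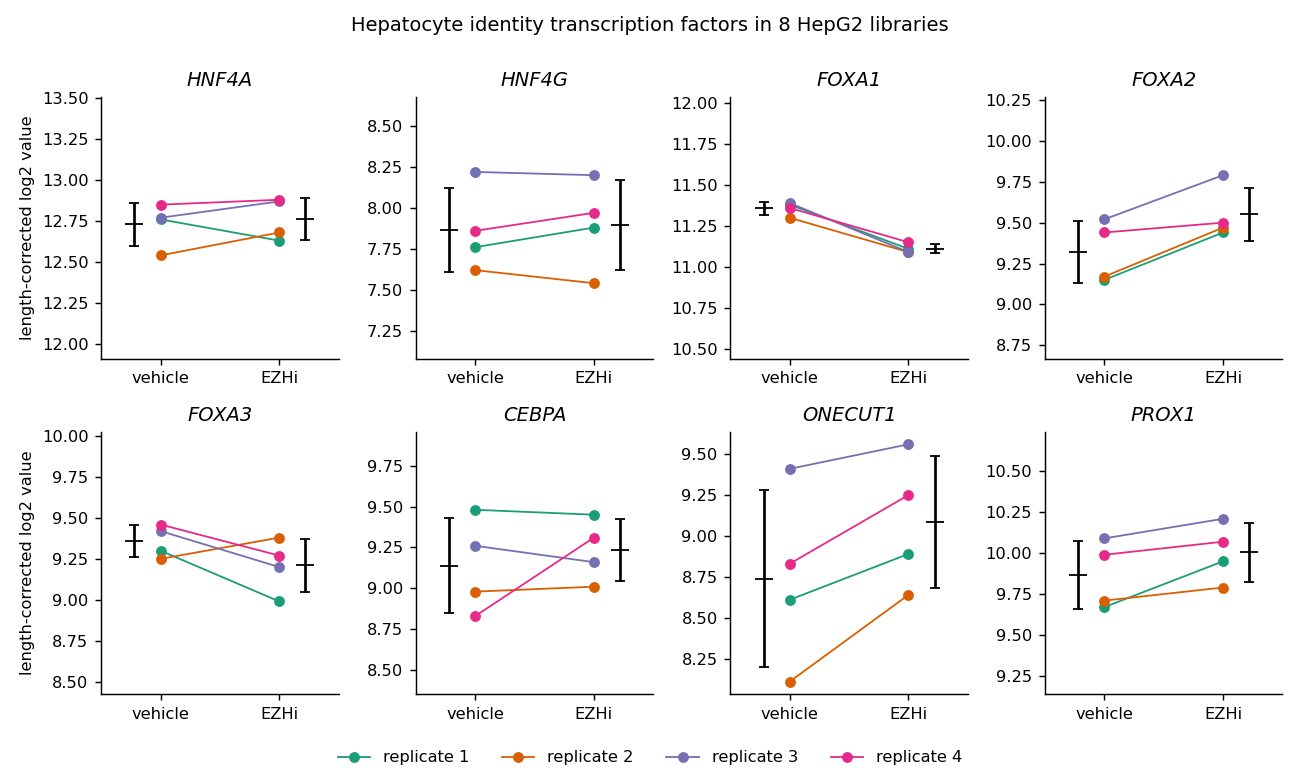
Length-corrected log2 value (y axis) of each member in the 4 vehicle and 4 EZHi libraries (x axis), with lines joining libraries of equal replicate number and black bars for the mean ± SD. The axes share a span and differ in position. The groups are separated for FOXA1 (11.30 to 11.39 in vehicle, 11.09 to 11.15 in EZHi), whereas the lines of ONECUT1 all go up within overlapping groups.

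HNF4A (ENSG00000101076, GRCh38 chromosome 20, 44355699 to 44432845, plus strand) is the nuclear receptor at the centre of the network. It stood at 271, 233, 272 and 289 estimated FPKM in vehicle replicates 1 to 4 and at 248, 256, 292 and 295 in EZHi replicates 1 to 4. The groups overlapped, and 98.3% of the tested genes had a lower level. On the log2 scale its value averaged 12.73 ± 0.13 in vehicle and 12.77 ± 0.13 in EZHi (SD, n = 4 per group), and the log2 fold change was 0.04 ± 0.09 (SE; limma adjusted p 0.85). Pair differences were -0.13, 0.14, 0.10 and 0.03. With the replicate block the 95% interval was -0.08 to 0.16 (limma adjusted p 0.668). With quantile normalization the log2 fold change was 0.14, which was not called by group alone (limma adjusted p 0.307) and was called with the block (limma adjusted p 0.0439).

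HNF4A-AS1, an antisense RNA that starts within HNF4A on the opposite strand (chromosome 20, 44372746 to 44395706), went from a log2 value of 8.50 ± 0.71 to one of 8.09 ± 0.45 (SD, n = 4 per group), a difference of -0.41 (limma adjusted p 0.491, and 0.0313 with the replicate block). It was lower in 4 of 4 pairs. Reads were counted without strand, so reads of this pair could not be told apart where they overlap. HNF4A-AS1 had a mean of 13.2 estimated FPKM, far below HNF4A. ENSG00000233376, which also lies in HNF4A, and R3HDML-AS1, which starts within 1 kb of its upstream start, had log2 fold changes of -0.06 and 0.12 (limma adjusted p 0.824 and 0.717).

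HNF4G (ENSG00000164749, chromosome 8, 75407914 to 75566834, plus strand), the paralog of HNF4A that binds the same DNA element, was the lowest member. Its values were 8.46, 7.68, 11.6 and 9.05 estimated FPKM in vehicle and 9.20, 7.27, 11.5 and 9.83 in EZHi. In both groups replicate 3 was the highest and replicate 2 the lowest, and the groups overlapped over almost their whole range. The log2 value averaged 7.86 ± 0.26 in vehicle and 7.90 ± 0.27 in EZHi (SD, n = 4 per group), and the log2 fold change was 0.03 ± 0.16 (SE; limma adjusted p 0.925). The block left a 95% interval of -0.11 to 0.18.

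FOXA1 (ENSG00000129514, chromosome 14, 37589552 to 37596059, minus strand) was the most abundant FOXA factor in both groups. It stood at 104, 98.7, 105 and 103 estimated FPKM in vehicle and at 86.3, 84.9, 85.2 and 89.0 in EZHi. Every EZHi library was below every vehicle library, a separation in this direction found in 7.93% of all genes tested. The log2 value fell from 11.36 ± 0.04 to 11.11 ± 0.03 (SD, n = 4 per group). The log2 fold change of -0.25 ± 0.05 (SE; limma adjusted p 0.0125) is a fall of 15.8%.

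The pair differences of FOXA1 were -0.27, -0.22, -0.30 and -0.21, and 24.2% of all genes were lower in 4 of 4 pairs. With the replicate block the adjusted p in limma was 0.00228 and the 95% interval -0.34 to -0.15. The residual SD of FOXA1 was 0.035 on the log2 scale, and 0.556% of the genes tested had a smaller one. The call held in 8 of 8 fits that left out one library, but it was lost with quantile normalization (-0.14, limma adjusted p 0.125) and with libraries centred on genes of at least 10 estimated FPKM (-0.15, limma adjusted p 0.0969). With the block it held under both scalings (limma adjusted p 0.0334 and 0.0195). The size of the fall of FOXA1 thus depended on how the libraries were scaled, and its sign did not under these settings. TTC6, which overlaps the annotated 5′ end of FOXA1 on the opposite strand, had a mean of 7.82 estimated FPKM and a log2 fold change of -0.25 (limma adjusted p 0.34), and was lower in 4 of 4 pairs.

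FOXA2 (ENSG00000125798, chromosome 20, 22580998 to 22585455, minus strand), which shares its forkhead domain with FOXA1 and is needed with it for liver specification, stood at 22.2, 22.5, 28.6 and 27.1 estimated FPKM in vehicle and at 27.1, 27.6, 34.6 and 28.2 in EZHi. The groups overlapped. The log2 value averaged 9.32 ± 0.19 in vehicle and 9.55 ± 0.16 in EZHi (SD, n = 4 per group), and the log2 fold change was 0.23 ± 0.11 (SE; limma adjusted p 0.224). FOXA2 was higher in 4 of 4 pairs (0.29, 0.30, 0.28 and 0.05), as were 20.6% of all genes, and by group alone its log2 fold change was 0.15 without EZHi replicate 3. With the replicate block it was called (limma adjusted p 0.0143, 95% interval 0.10 to 0.36). That call was lost without replicate 1 (limma adjusted p 0.0613), 2 (0.0623) or 3 (0.0688), and held without replicate 4 (0.012), which had the smallest pair difference.

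FOXA3 (ENSG00000170608, chromosome 19, 45863989 to 45873797, plus strand), the FOXA factor of the differentiated liver, stood at 24.7, 23.8, 26.8 and 27.5 estimated FPKM in vehicle and at 19.8, 26.0, 22.9 and 24.1 in EZHi. The groups overlapped through EZHi replicates 2 and 4. The log2 value averaged 9.36 ± 0.10 in vehicle and 9.21 ± 0.16 in EZHi (SD, n = 4 per group), and the log2 fold change was -0.15 ± 0.09 (SE; limma adjusted p 0.34, and 0.155 with the block). Pair differences were -0.31, 0.12, -0.23 and -0.19, so that replicate 2 went against the others. With the block, the value was -0.24 without replicate 2 (limma adjusted p 0.0209) and -0.10 without replicate 1 (limma adjusted p 0.44). It was nearer to 0 by group alone without EZHi replicate 1 (-0.078), and with quantile normalization (-0.074) or centring (-0.056), and FOXA3 was not called in these fits. SYMPK, which starts within 1 kb of FOXA3 on the opposite strand, was called lower (-0.21, limma adjusted p 0.0411).

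**Figure D2:**
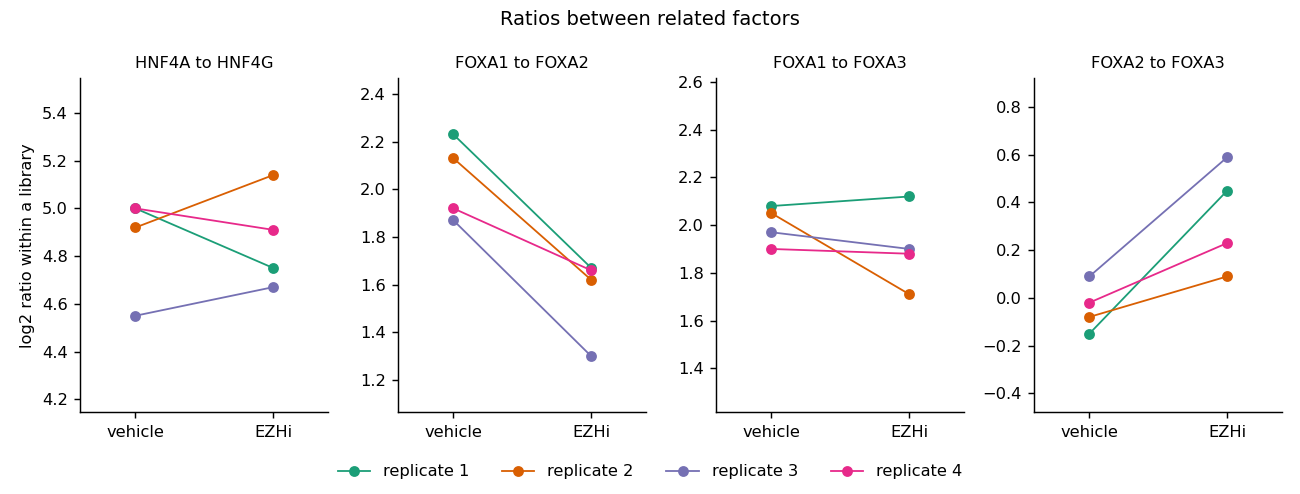
Log2 ratio of related factors within each library (y axis) in vehicle and EZHi (x axis), with lines joining libraries of equal replicate number. The FOXA1 to FOXA2 ratio lies between 1.87 and 2.23 in vehicle and between 1.30 and 1.67 in EZHi, while the HNF4A to HNF4G ratio goes up in 2 pairs and down in 2.

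Because a ratio of genes within a library does not depend on a scaling factor of that library, related factors were compared with each other. The log2 ratio of FOXA1 to FOXA2 was 2.23, 2.13, 1.87 and 1.92 in vehicle and 1.67, 1.62, 1.30 and 1.66 in EZHi. The groups did not overlap, and the ratio was lower in 4 of 4 pairs. As a linear ratio, FOXA1 exceeded FOXA2 4.11-fold in vehicle and 2.95-fold in EZHi. The difference was -0.48 on the log2 scale (exact two-sided permutation p 0.0286, the smallest that 70 assignments allow, and 0.114 adjusted over the 4 ratios computed), so it did not pass the threshold after adjustment.

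The log2 ratio of FOXA2 to FOXA3 was -0.15, -0.08, 0.09 and -0.02 in vehicle and 0.45, 0.09, 0.59 and 0.23 in EZHi. It was higher in 4 of 4 pairs, and replicate 2 of EZHi lay within the vehicle range. The difference was 0.38 (exact permutation p 0.0571, adjusted p 0.114). FOXA1 to FOXA3 went from 2.00 ± 0.08 (SD, n = 4) to 1.90 ± 0.17 (SD, n = 4), with an exact permutation p of 0.314 (adjusted p 0.419). This difference of -0.10 was -0.17 without EZHi replicate 1 and -0.032 without EZHi replicate 2. HNF4A to HNF4G was 4.87 ± 0.22 (SD, n = 4) and 4.87 ± 0.21 (SD, n = 4), that is, 29.2-fold in both groups (exact permutation p 1). The 4 ratios share genes, so they are not separate measurements, and an exact sign-flip test over the 4 pairs cannot go below 0.125.

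CEBPA (ENSG00000245848, chromosome 19, 33299934 to 33302534, minus strand), which drives metabolic genes and restrains proliferation of hepatocytes, stood at 28.0, 19.7, 24.0 and 17.8 estimated FPKM in vehicle and at 27.4, 20.1, 22.3 and 24.7 in EZHi. Vehicle replicate 4 was the lowest library, and the groups overlapped. The log2 value averaged 9.14 ± 0.29 in vehicle and 9.23 ± 0.19 in EZHi (SD, n = 4 per group), and the log2 fold change was 0.09 ± 0.15 (SE; limma adjusted p 0.754). Pair differences were -0.03, 0.03, -0.10 and 0.47, and without replicate 4 the block gave -0.03. CEBPA-DT, a divergent RNA that starts within 1 kb of CEBPA, had a log2 fold change of 0.05 (limma adjusted p 0.806).

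ONECUT1 (ENSG00000169856, chromosome 15, 52755053 to 52791078, minus strand) varied more between libraries than any other member. It stood at 15.3, 10.8, 26.5 and 17.8 estimated FPKM in vehicle and at 18.5, 15.6, 29.5 and 23.9 in EZHi. In both groups replicate 2 was the lowest and replicate 3 the highest, with a 2.46-fold range in vehicle and a 1.89-fold range in EZHi, and the groups overlapped. Its residual SD of 0.47 on the log2 scale exceeded that of 97.9% of the genes tested.

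The log2 value of ONECUT1 averaged 8.74 ± 0.54 in vehicle and 9.09 ± 0.40 in EZHi (SD, n = 4 per group), and the log2 fold change was 0.35 ± 0.27 (SE; limma adjusted p 0.469, 95% interval -0.26 to 0.95). Within pairs ONECUT1 was higher in 4 of 4 (0.27, 0.53, 0.15 and 0.43). With the replicate block the standard error was 0.07 and the gene was called (limma adjusted p 0.00521, 95% interval 0.19 to 0.50), and it was called in 4 of 4 block fits that left out one pair, with adjusted p from 0.00784 to 0.0326. The fold change corresponds to 27.2% more ONECUT1 mRNA. Without the block, the value ran from 0.14, when vehicle replicate 2 was left out, to 0.57, when vehicle replicate 3 was.

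PROX1 (ENSG00000117707, chromosome 1, 213983181 to 214041510, plus strand) stood at 31.7, 32.7, 42.6 and 39.6 estimated FPKM in vehicle and at 38.5, 34.6, 46.4 and 41.9 in EZHi. Replicate 3 was again the highest in both groups, and the groups overlapped. The log2 value averaged 9.86 ± 0.21 in vehicle and 10.00 ± 0.18 in EZHi (SD, n = 4 per group), and the log2 fold change was 0.14 ± 0.12 (SE; limma adjusted p 0.511). Pair differences were 0.28, 0.08, 0.12 and 0.08. By group alone the log2 fold change was 0.072 without EZHi replicate 3. Leaving out a vehicle library gave 0.075 (replicate 1), 0.09 (replicate 2) or 0.22 (replicate 3), and PROX1 was called in none of the 8 fits that left out one library. With the block the 95% interval was 0.03 to 0.26 and the adjusted p in limma 0.0661, which passed the threshold with quantile normalization (0.23, limma adjusted p 0.00899) or centring (0.24, limma adjusted p 0.0072). PROX1-AS1 and ENSG00000274895, on the opposite strand of PROX1, had log2 fold changes of -0.12 and -0.23 (limma adjusted p 0.75 and 0.243), and ENSG00000272167 was below the filter.

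**Figure D3:**
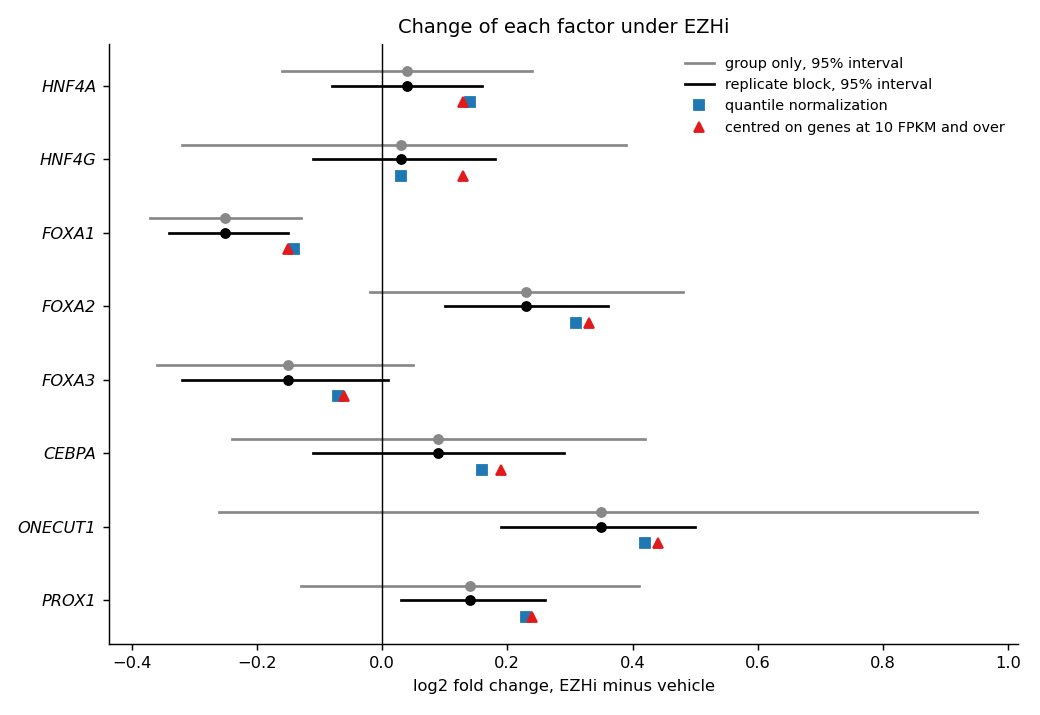
Log2 fold change of each member, EZHi minus vehicle (x axis), with 95% intervals from the group-only fit (grey) and the fit with the replicate block (black), and the value after quantile normalization (squares) and after centring on genes of at least 10 estimated FPKM (triangles). The interval of ONECUT1 narrows from -0.26 to 0.95 to 0.19 to 0.50 with the block, and FOXA1 lies below 0 under all 4.

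The spread by replicate number was then compared between members. The standard error with the block was below that of the group-only fit for 8 of 8 members, most for ONECUT1. The share of all genes with a smaller standard error was not computed. Over all genes, the share called went from 13.1% to 30.0% with the block, so this count is not read as a trait of the members. HNF4G, FOXA2, ONECUT1 and PROX1 were highest in replicate 3 of both groups, a pattern found in 18.8% of all genes tested. HNF4A was highest in replicate 4 of both groups and CEBPA in replicate 1 of both. The deviations of ONECUT1 from its group mean were -0.12, -0.63, 0.67 and 0.09 on the log2 scale in vehicle and -0.20, -0.44, 0.47 and 0.17 in EZHi.

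Over the 8 libraries, Pearson correlations between the deviations of 2 members ran from -0.53 (FOXA3 and CEBPA) to 0.95 (HNF4G and ONECUT1) in 28 pairs of members. The 6 pairs at 0.8 or more were those among HNF4G, FOXA2, ONECUT1 and PROX1, a set named after its values were seen. These correlations are descriptive, since all members share the libraries and the common normalization. HNF4A, FOXA1, FOXA3 and CEBPA lay outside this set, whose lowest value was 0.80 (HNF4G and FOXA2). HNF4A still correlated with its members, at 0.61 (HNF4G), 0.62 (FOXA2), 0.76 (ONECUT1) and 0.67 (PROX1).

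**Figure D4:**
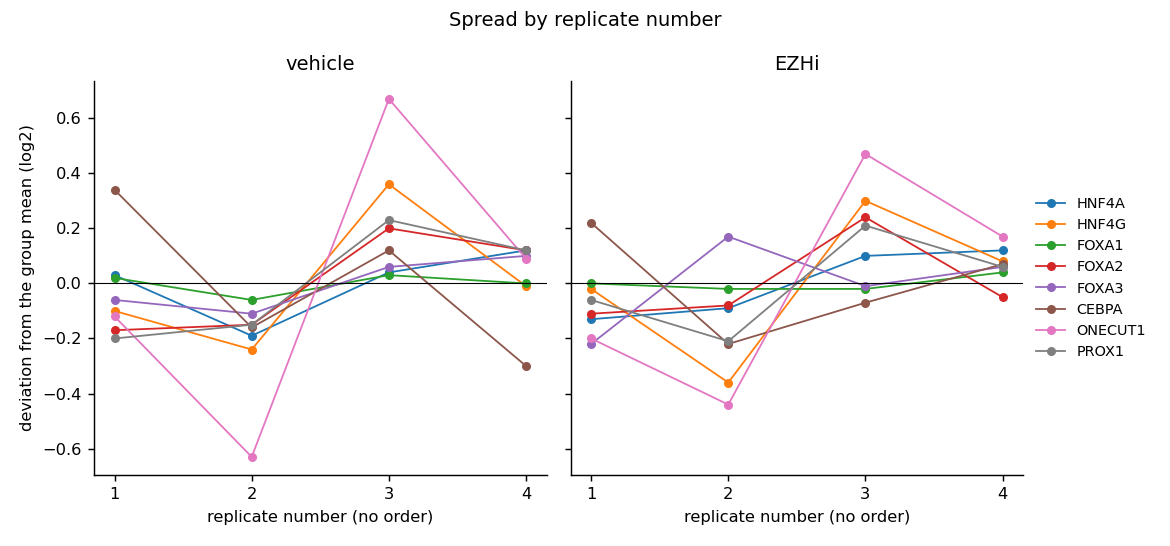
Deviation of each member from its group mean on the log2 scale (y axis) by replicate number (x axis, a name without order; lines only connect values of one gene), in vehicle and EZHi. ONECUT1, HNF4G, FOXA2 and PROX1 are highest in replicate 3 in both panels, and ONECUT1 reaches 0.67 and 0.47.

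Genes whose log2 values followed a member most closely over the 8 libraries were listed by Pearson r, again as a description. Unlike the correlations of deviations above, this r includes the difference between the groups. For HNF4A they were TOMM40P2 (0.965), CFAP410 (0.964) and TMEM81 (0.958), and 36 genes reached 0.9. For FOXA1 they were MED1 (0.991), APTR (0.985) and PHF21A (0.984), and 308 genes reached 0.9. MED1, a Mediator subunit that contacts nuclear receptors, had a log2 fold change of -0.40 (limma adjusted p 0.00134). Because the groups of FOXA1 were apart, genes picked for likeness to it are lower in EZHi by selection, so this p is no separate result. For FOXA2 they were HSF4 (0.984), OTUD1 (0.983) and TRAPPC6A (0.981), with 160 genes at 0.9 or more. For ONECUT1 they were ITIH3 (0.997), GLUL (0.992) and AFMID (0.99), with 330 genes at 0.9 or more. ITIH3 and GLUL, which encode a secreted plasma protein and glutamine synthetase, had log2 fold changes of 0.43 and 0.19 (limma adjusted p 0.413 and 0.558).

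The members were set beside 4 lists of genes of their network. Over all genes tested, limma called 8.85% higher and 4.27% lower, and 14.9% and 15.1% with the replicate block. Among 31 other liver TFs tested, 4 were called higher and 4 lower, with a median log2 fold change of -0.00, and with the replicate block 9 were called higher and 5 lower. NR1H4, the bile acid receptor FXR, rose from 7.83 ± 0.34 (SD, n = 4) to 8.89 ± 0.28 (SD, n = 4), or 2.08-fold (limma adjusted p 0.00411). NR5A2, a nuclear receptor that acts with HNF4A on bile acid synthesis genes, rose by a log2 fold change of 0.50 (limma adjusted p 0.00398). CEBPE, a C/EBP factor of granulocytes, rose by 1.80 from a low level (limma adjusted p 5.34e-05), and GATA6 by 0.87 (limma adjusted p 0.03, and 0.0805 with quantile normalization). CEBPD, an acute-phase C/EBP factor, fell by 0.76 (limma adjusted p 0.0206). The other 3 called lower, named after their values were seen, were NR2F6 (-0.32), GATA4 (-0.29) and CEBPG (-0.26), with limma adjusted p of 0.0199, 0.0367 and 0.0336. Each of these 3 lost its call with quantile normalization and with centring, as FOXA1 did. The most abundant factors were not called: HLF (315 estimated FPKM) had a log2 fold change of -0.07, XBP1 (281) 0.12 and SREBF1 (96.3) 0.13.

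Genes of hepatocyte function that the members are known to bind were described next. Of 34 such genes tested, 5 were called higher and 0 lower in limma, and 7 were higher and 0 lower at an unadjusted p under 0.05. Over all genes 13.1% were called, 8.85% higher and 4.27% lower, so the total of 5 of 34 is near the background. With the replicate block 18 were called higher and 3 lower, the latter being ALB, F7 and TAT, where F7 and TAT were named after their values were seen. The block called 14.9% of all genes higher and 15.1% lower. With the block and quantile normalization, 20 of these genes were called higher and 1 lower (13.7% and 14.0% of all genes). With the block and centring it was 23 and 0 (22.6% and 6.79% of all genes), so the lower calls depended on the scaling. Quantile normalization without the block gave 5 higher and 0 lower (1 lower at an unadjusted p under 0.05), and centring 6 and 0 (0 lower). The shares of all genes called higher and lower were 6.93% and 3.89% with quantile normalization, and 12.7% and 1.58% with centring. Their median log2 fold change was 0.25, and it was 0.22 with quantile normalization and 0.35 with centring. The medians over all genes tested were -0.01, -0.06 and 0.09 in the same order, so centring moved all genes up as well. FGB and FGG, chains of fibrinogen, rose by 0.92 (limma adjusted p 0.00167) and 0.50 (limma adjusted p 0.0342). CYP7A1, the rate-limiting enzyme of bile acid synthesis, rose by 1.65 from a mean log2 value of 3.34 (limma adjusted p 0.0124), and ASS1 of the urea cycle rose by 0.57 (limma adjusted p 0.00341). GC, also among the 5 called higher, had a pooled mean of 0.119 estimated FPKM. It passed the filter of 0.1 only through the EZHi libraries. Its log2 value was 1.19 ± 0.05 in vehicle and 1.93 ± 0.12 in EZHi (SD, n = 4 per group). Its log2 fold change of 0.74 (limma adjusted p 0.00011) is therefore not counted as support. ALB, the most abundant gene of this list, had a log2 fold change of -0.28 (limma adjusted p 0.638, and 0.0314 with the block), and TF and APOA2 had 0.09 and -0.19 without a call.

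TFs of the biliary lineage and of epithelial fate gave 3 genes called higher and 1 lower of 16 tested, with a median log2 fold change of -0.04, and 5 higher and 5 lower with the replicate block. HES1 and HEY1, targets of Notch signaling, rose by 0.67 (limma adjusted p 0.00761) and 0.75 (limma adjusted p 0.00634), and OVOL1 by 0.88 from a low level (limma adjusted p 0.00156). KLF6 fell by 0.38 (limma adjusted p 0.0464), a call lost with quantile normalization (0.138) and with centring (0.114). SOX9, a biliary factor present at 84.4 estimated FPKM, had a log2 fold change of 0.19 (limma adjusted p 0.323, and 0.0156 with the block), and ID2 and YAP1 had -0.05 and -0.04.

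Partners and antagonists of the members gave 5 genes called higher and 2 lower of 20 tested, with a median log2 fold change of -0.11, and 6 higher and 6 lower with the replicate block. TRIB2, a pseudokinase that promotes the degradation of CEBPA protein, rose from 3.82 ± 0.34 (SD, n = 4) to 6.87 ± 0.18 (SD, n = 4), or 8.32-fold (log2 fold change 3.06, standard error 0.18, limma adjusted p 6.49e-06). SNAI1 and SNAI2, repressors of epithelial genes, rose by 0.95 (limma adjusted p 0.00205) and 1.00 (limma adjusted p 0.000931), although SNAI2 stayed at a low level. NCOA1, a coactivator of nuclear receptors, rose by 0.67 (limma adjusted p 0.0103), and TLE3, a Groucho corepressor, by 0.45 (limma adjusted p 0.0033). NCOR1 (-0.30, limma adjusted p 0.00693) and FOXP1 (-0.26, limma adjusted p 0.0347), named after their values were seen, were the lower ones. With quantile normalization 0 of the 20 were called lower in limma (3.89% of all genes), and NCOR1 and FOXP1 had an unadjusted p under 0.05. The most abundant, TLE1 (125 estimated FPKM), LMNB1 (112) and HDAC3 (69.9), had log2 fold changes of -0.19, -0.13 and -0.14 and were not called, although TLE1 was with the block (limma adjusted p 0.0128).

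**Figure D5:**
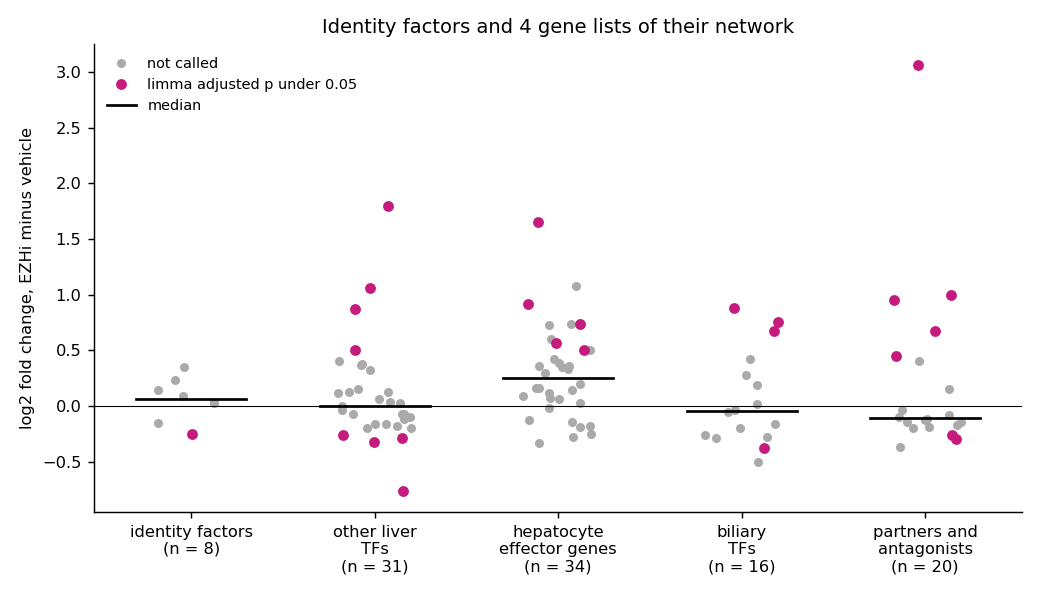
Log2 fold change (y axis) of each tested gene of the identity factors and of 4 lists of their network (x axis), with called genes in magenta and the median as a bar. The 8 members lie between -0.25 and 0.35, and the highest values of the longer lists are those of CEBPE (1.80), CYP7A1 (1.65), OVOL1 (0.88) and TRIB2 (3.06), all of which have lower levels than every member.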

How the data were processed

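RNA-seq of 8 HepG2 libraries was used. According to the study's methods and, for versions, the submitters' processing notes, the authors aligned reads to hg38 with HISAT2 2.2.1, counted them over exons without strand with HTSeq 0.9.1, removed genes with very few reads and applied the regularized log of DESeq2 1.40.2 with a correction for mean transcript length. The deposited values are therefore on a log2 scale, although named FPKM. The regularized log shrinks differences of low genes. Read depth is unknown, and no counting interval can be given. Estimated FPKM were computed from 2 to the power of the value and the mean over libraries of the summed values, multiplied back by transcript length. Of 25604 rows, 1 repeated row was dropped.

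Genes with a mean of at least 0.1 estimated FPKM were tested with limma 3.58.1 in R 4.3.3 (two-sided, a trended prior and no term but group, Benjamini-Hochberg adjustment over 20153 genes). Ratios used exact permutation tests (scipy 1.17.1). Coordinates came from GENCODE release 44 (GRCh38). The study describes the 4 replicates as independent. Deviations from group means correlated at 0.216 to 0.634 between libraries of equal number (4 pairs) and at -0.582 to 0.199 between unequal numbers (12 pairs), so the numbers were taken to pair the libraries. Pairing rests on these data and the titles.

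Alternatives were other scalings, filters, a pseudocount of 0.5, no trend, the replicate block and left-out libraries. Members, lists and tests were chosen with earlier results of these data known. Besides the members, genes were named when called among the 5 largest changes of a list, when among its 3 highest levels, when overlapping or starting within 1 kb of a member, or when among the 3 most alike to HNF4A or a called member.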

Additional observations from a re-analysis of the deposited data

Results flagged for a closer look

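Single libraries were set against the other 3 of their group with Dixon's test at the 95% level, which compares the distance to the closest library with the whole range. It singled out a library in 3 of 24 sets of 4 values, and chance at 1 in 20 would give about 1.2. FOXA2 was highest in EZHi replicate 3, with a log2 value of 9.79 against 9.44 to 9.50 in the other EZHi libraries (gap of 0.844 of the range). The FOXA1 to FOXA2 ratio was lowest in the same library, at 1.30 on the log2 scale against 1.62 to 1.67 (0.867 of the range), and shares the FOXA2 value. The HNF4A to HNF4G ratio was lowest in vehicle replicate 3, at 4.55 against 4.92 to 5.00 (0.832 of the range). Without EZHi replicate 3, the log2 fold change of FOXA2 was 0.15 and the FOXA1 to FOXA2 difference -0.39.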

How the results depend on the processing

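Over all genes 2644 were called, 1784 higher and 860 lower. The number was 1579 with a filter at 1 estimated FPKM, which removes genes from the test and gave 780 higher and 799 lower, 6051 with the replicate block, 5593 and 5917 with the block and quantile normalization or centring, 1811 to 2571 without one library and 4720, 5043, 4262 and 4124 with the block and without replicate 1, 2, 3 or 4. Quantile normalization gave 1397 higher and 783 lower, and centring 2550 and 319. Of the 8 members, 1 was called, 0 with quantile normalization or centring, 3 with the block, 5 and 4 with the block and these scalings, 2 to 3 with the block and without one pair, and 1 in each fit without one library. Other liver TFs called went from 8 to 4 with quantile normalization, 5 with centring and 14 with the block, and the block gave 21 functional genes, 10 biliary TFs and 12 partners. Signs turned only for values near 0: HNF4A (-0.026 to 0.081 without one library: -0.026 without vehicle replicate 2, -0.0033 without EZHi replicate 4), HNF4G (-0.065 to 0.15: -0.047 without vehicle replicate 2, -0.065 without EZHi replicate 3), CEBPA (-0.0089 to 0.21: -0.0089 without vehicle replicate 4, -0.034 with the block and without replicate 4) and the HNF4A to HNF4G ratio, which without one library ran from -0.11 to 0.068 (-0.09 without EZHi replicate 2, -0.013 without EZHi replicate 4). The cause of these shifts was not tested.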
